A study of Mus musculus with 2 samples.

Results

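The 10 genes studied mark macrophages, or build the complement protein C1q which macrophages secrete, and were compared between 2 RNA-sequencing libraries of mouse tongue: *C1qa*, *C1qb*, *C1qc*, *Csf1r*, *Cd68*, *Cd14*, *Emr1*, *Tyrobp*, *Fcer1g* and *Aif1*. They were taken by gene symbol from the deposited table, where each of the 10 had 1 row among 18498. One library came from the circumvallate papillae (CvP), the posterior tongue structure that holds taste buds, and the other from tongue epithelium without papillae (Epi). Both came from male C57BL/6J mice, 12 to 30 weeks old and fed normal chow, with no genetic change or treatment named in the labels, and the RNA of at least 20 mice was pooled for each, so that there was 1 library per tissue and no replicate. Every comparison below is therefore between 2 libraries, and no p-value was calculated. How the tissues were separated before RNA extraction is not given in the sources used here. For its RT-PCR, the study states that its CvP sample also held epithelial tissue from around the taste buds. Whether this holds for the sequenced CvP library is not stated.

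Macrophages are resident phagocytes of connective tissue and epithelium. They depend on the receptor CSF1R, which is bound by the growth factors CSF1 and IL-34. They are the main source of C1q, the recognition protein of the classical complement pathway, which is built of A, B and C chains with a collagen-like stalk and a globular head. C1q needs the proteases C1r and C1s to start the cascade, and without them it can still mark dying cells and debris for uptake. TYROBP (DAP12) and FCER1G (the Fc receptor gamma chain) are short membrane adaptors that carry an immunoreceptor tyrosine-based activation motif (ITAM), through which many myeloid receptors signal.

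The sequences behind these roles were read from the coding transcripts of GENCODE M1, whose genome is NCBI37/mm9, the build of the deposited table. The C1q chains are shown first, because the 3 genes lie side by side and their RNA levels are compared below. In each chain the longest unbroken stretch of repeating triplets that start with glycine was found by translation, and the glycine codon that opens each triplet is in capitals. The stretch held 16 such triplets in *C1qa* and 16 in *C1qc*, all shown, and 29 in *C1qb*, of which the first 20 are shown.
C1qa, chr4:136452480-136452623, minus strand: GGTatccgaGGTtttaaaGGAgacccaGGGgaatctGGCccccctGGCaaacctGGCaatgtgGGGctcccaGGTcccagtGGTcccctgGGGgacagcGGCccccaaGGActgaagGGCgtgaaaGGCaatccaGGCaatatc
C1qb, chr4:136436696-136438132, minus strand, over 2 exons: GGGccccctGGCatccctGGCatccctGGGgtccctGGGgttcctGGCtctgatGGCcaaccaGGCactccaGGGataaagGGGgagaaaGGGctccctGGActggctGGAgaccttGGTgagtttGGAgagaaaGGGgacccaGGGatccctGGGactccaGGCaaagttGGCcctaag
C1qc, chr4:136446354-136446497, minus strand: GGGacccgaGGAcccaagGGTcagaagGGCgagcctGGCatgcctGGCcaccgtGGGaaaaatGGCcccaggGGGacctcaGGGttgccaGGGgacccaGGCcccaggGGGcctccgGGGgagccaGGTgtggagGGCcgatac
The translated chains had 245, 253 and 246 residues for A, B and C. Aligned in pairs, 43.2% of residues were identical between A and B, 38.1% between A and C and 45.3% between B and C.

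The ITAM stretches of the adaptors are shown because *Tyrobp* and *Fcer1g* are compared as a pair. Capitals mark the tyrosine and the leucine codons of the motif, which has 7 residues between its tyrosine-leucine units in both. Each stretch spans 2 exons.
Tyrobp, chr7:31200689-31202401, plus strand: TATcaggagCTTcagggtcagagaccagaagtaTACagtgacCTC
Fcer1g, chr1:173160020-173160203, minus strand: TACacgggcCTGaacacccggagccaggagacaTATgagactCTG
The motif was found 1 time in each protein, of 114 residues for *Tyrobp* and 86 for *Fcer1g*, and over the aligned part 30.2% of residues were identical.

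Levels are RPKM, read densities scaled by the length of the exon model and by library depth, and are written with the CvP first and the Epi second. The spacing of the lowest RPKM values gave a depth of about 2.84e+07 mapped reads for the CvP library and 2.79e+07 for the Epi library, and reads per gene were estimated from it. From these reads came a 95% interval (exact, Clopper-Pearson) for each CvP/Epi ratio. The intervals cover counting error only, not the variation between mice or dissections. A bulk library cannot tell fewer cells of a type from less RNA per cell. Over the 10363 rows with an RPKM of at least 1 in both libraries the median CvP/Epi ratio was 1.31, a log2 shift of 0.39 towards the CvP. Ratios given here that lie between 1 and that median, such as those of *Tlr4*, *Il34*, *Plcg2*, *Sirpa*, *Calr* and *Lamp1*, fall under 1 once divided by it, and scaling both libraries to a common sum, which multiplies every ratio by 1.21, lifts *Clu* and *Myd88* above 1. The direction of the 10 genes was the same under every scaling tried.

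All 10 genes were higher in the CvP, as were 77.0% of the 18033 rows with an RPKM above 0 in either library, and the lower limit of the interval was above 1 for each of them. CvP RPKM ran from 0.79 (*Emr1*) to 20.4 (*Cd14*), and Epi RPKM from 0.06 (*Emr1*) to 4.45 (*Cd68*). With no filter on low values, 9 of the 10 had a ratio above 3, the ratio criterion of the study, against 26.1% of these rows. The counts of listed genes below are also unfiltered and are to be read against these 2 shares, and they include genes at 3 Epi reads or fewer, for which no fold is given. Among the 10, the exception was *Cd68*. In rows of a similar level, with a geometric mean RPKM between 0.218 and 6.94, 24.2% of 7456 rows passed this ratio. All of the genes but *Emr1*, 9 in number, reached an RPKM of 1 in either library. Of these, 8 had a ratio above 3, where 15.9% of the 12549 rows at that level did. Apart from *Cd68*, these genes passed that filter through the CvP value alone, so the count is a description. With the study's other criterion added, a CvP RPKM above 10, 2.35% of all rows passed and 1 of the 10 genes, *Cd14*, did. The median log2 ratio of the 10 genes, with 0.1 added to each RPKM, was 2.65, compared with 0.50 over the rows with an RPKM above 0 in either library and 0.78 over the rows of similar level.

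**Figure D1:**
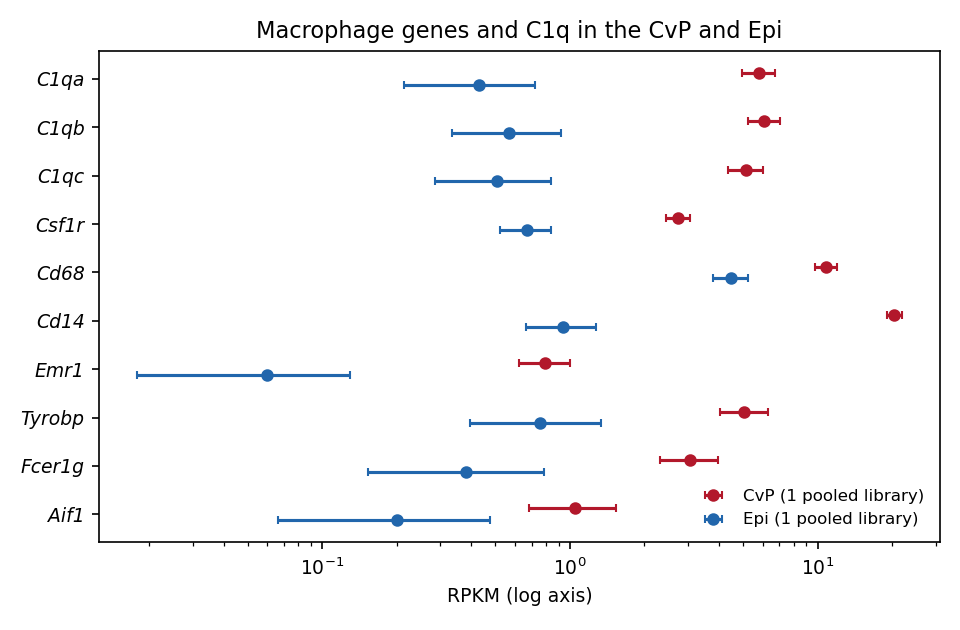
RPKM (log axis) of the 10 genes in the CvP library (red) and the Epi library (blue), with bars for the 95% exact Poisson interval of the estimated reads. In every gene the CvP point lies to the right of the Epi point, and the bars do not meet.

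The C1q chains were present at nearly the same level as each other. *C1qa* (chromosome 4, 136451831 to 136454759) had 5.79 RPKM against 0.43, from about 171 and 12 reads. For *C1qb* (136436061 to 136442092) the values were 6.08 and 0.57, about 183 and 17 reads. *C1qc* (136445717 to 136448829) had 5.12 and 0.51, about 153 and 15 reads. The ratios were 13.5 (95% interval 7.82 to 27.7), 10.7 (6.44 to 18.6) and 10.04 (5.90 to 18.4). Within the CvP the highest chain was 1.19 times the lowest, and within the Epi 1.33 times. All 6 comparisons of one chain with another inside a library had an interval that held 1, the widest difference in the CvP being *C1qb* over *C1qc* at 1.19 (0.953 to 1.48). The CvP/Epi ratios of the chains could not be told apart either: by estimated reads, that of *C1qa* was 1.32 times that of *C1qb*, with an interval from 0.576 to 3.13. The 3 chains summed to 17.0 RPKM against 1.51, which is 11.3 times as much in the CvP (8.32 to 15.8).

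The 3 C1q genes lie on the minus strand in the order *C1qb*, *C1qc*, *C1qa*, with 3624 bases between *C1qb* and *C1qc* and 3001 bases between *C1qc* and *C1qa*. Their exons overlap no other annotated gene. The rows on both sides of the cluster behaved unlike each other. *Epha8*, an ephrin receptor 30.6 kb beyond *C1qa*, was near 0 in both libraries (RPKM 0.04 and 0.06). *Ephb2*, another ephrin receptor 44.2 kb beyond *C1qb*, had 8.85 RPKM against 0.62, and its ratio of 14.3 is of the size of the C1q ratios.

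Promoter windows were compared because the C1q genes had like ratios. RefSeq (GRCm38.p6) windows were matched for *C1qb*, *C1qc*, *Cd68*, *Fcer1g* and *Aif1*, and the 250 bases before the start were searched on both strands for GAGGAA, the core that the myeloid factor PU.1 binds. The core was in 4 of the 5 windows, against 23.3% of 32851 windows of this length. The windows of *C1qb* and *C1qc* are shown with this core, or its complement, in capitals.
C1qb, GRCm38.p6, chr4:136886201-136886450, minus strand: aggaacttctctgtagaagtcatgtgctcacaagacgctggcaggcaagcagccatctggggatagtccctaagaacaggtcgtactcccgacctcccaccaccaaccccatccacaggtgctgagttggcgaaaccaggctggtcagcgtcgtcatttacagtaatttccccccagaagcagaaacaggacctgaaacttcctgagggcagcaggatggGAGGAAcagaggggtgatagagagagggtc
C1qc, GRCm38.p6, chr4:136892915-136893164, minus strand: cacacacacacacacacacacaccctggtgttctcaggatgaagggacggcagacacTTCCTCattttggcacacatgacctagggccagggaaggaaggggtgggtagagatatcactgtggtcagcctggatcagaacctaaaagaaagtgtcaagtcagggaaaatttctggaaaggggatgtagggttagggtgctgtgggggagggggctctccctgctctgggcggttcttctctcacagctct
Counted from the start, the core begins at position -30 in *C1qb* and at -193 in *C1qc*, where it extends to the longer form GAGGAAGT, which 2.44% of all windows held. The *Fcer1g* window did not hold the core. A further motif searched, TGCTGAC, was in 0 of the 5 windows, against 3.81% of all windows. These matches describe letters only, and no binding was measured.

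Complement genes that act with C1q were far lower than C1q. *C1ra* and *C1s*, the proteases of the C1 complex, had CvP RPKM values of 0.22 and 0.44 and Epi values of 0.06 and 0.17. Per length, the mean of the C1q chains in the CvP was 25.7 times *C1ra* (95% interval 16.1 to 45.0) and 12.9 times *C1s* (9.16 to 18.4). In the Epi it was 8.39 times *C1ra* (3.05 to 24.8), an interval that overlaps that of the CvP, and 2.96 times *C1s* (1.58 to 5.80), an interval below it. *C2* and *C4b*, the next components of the classical pathway, had CvP values of 0.39 and 0.06 and Epi values of 0.15 and 0.01. *C4a*, *C1rb* and *Gm5077*, related copies of *C4b*, *C1ra* and *C1s*, had CvP values of 0.14, 0.03 and 0.14. Their Epi values were 0.08, 0 and 0. Whether reads that match 2 copies were lost from these values was not tested. *C3*, on which all complement pathways converge, had 1.13 RPKM against 0.18, or 6.28 times as much (4.11 to 9.84). The C1q mean was 5.01 times *C3* in the CvP (4.18 to 5.99) and 2.80 times in the Epi (1.66 to 4.66), with overlapping intervals.

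The rest of the pathway was taken from lists of complement genes. Of the 15 other listed initiation genes with a row, 6 had a ratio above 3, beside 26.1% of all rows. Of these 6, 4 rest on 3 Epi reads or fewer, among them 3 listed at 0 in the Epi. An RPKM of 1 in either library was reached by 3 of the 15, namely *Cfp* (properdin, 2.68 in the CvP and 0.96 in the Epi), *Masp2* (1.87 and 0.85) and *C3*. None of the 4 terminal pathway genes with a row reached an RPKM of 1. The highest of them in the CvP, *C8a*, had 0.29 there and was listed at 0 in the Epi. Of the regulators 5 of 11 had a ratio above 3, and of the receptors 6 of 11, of which 2 and 3 rest on 3 Epi reads or fewer. The share of all rows is again 26.1%. *Clu*, a secreted chaperone that binds complement, was level at 87.0 and 88.8, and *C1qbp* and *Calr*, proteins reported to bind C1q but with other main roles in mitochondria and the endoplasmic reticulum, had ratios of 1.00 (0.922 to 1.09) and 1.21 (1.18 to 1.24). *Cd55*, which breaks up C3 convertases on the cell surface, had 3.05 and 0.42, a ratio of 7.26 (4.89 to 10.9), and *Cd59a*, which blocks the membrane attack complex, 2.14 and 0.45, a ratio of 4.76 (2.98 to 7.73). *Cr1l* (Crry), a further surface regulator, was the highest of these surface regulators in both tissues, at 17.6 and 9.63, a ratio of 1.83 (1.63 to 2.05). The secreted inhibitor *Serping1* had 0.35 and 0.29, a ratio of 1.21 (0.594 to 2.75). *Itgam* and *Itgax*, the alpha chains of the complement receptors CR3 and CR4, had ratios of 4.47 (3.60 to 5.56) and 3.86 (2.83 to 5.44).

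**Figure D2:**
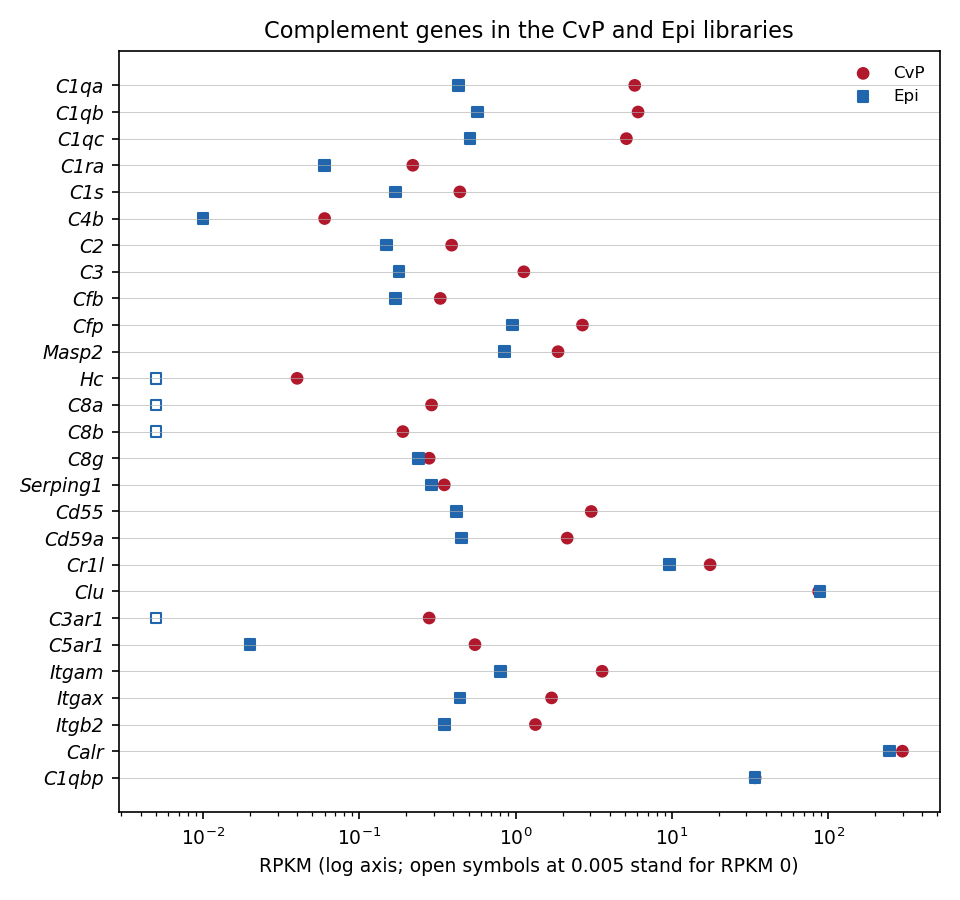
RPKM (log axis) of 27 complement genes in the CvP (red circles) and Epi (blue squares), in the order C1q, proteases and central components, terminal components, regulators and receptors. Open symbols drawn at 0.005 stand for an RPKM of 0. The C1q chains lie above 5 in the CvP while *C1ra*, *C1s*, *C4b* and *C2* lie below 0.5.

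*Cd14*, the co-receptor that hands bacterial lipopolysaccharide to TLR4, had the highest ratio of the 10 genes. It had 20.4 RPKM against 0.94, from about 867 and 39 reads, and its ratio was 21.7 (15.9 to 31.0). This was 1.93 times the ratio of summed C1q (interval 1.21 to 3.09). Its partners in the receptor complex had lower ratios. *Tlr4* had 5.92 and 5.32, a ratio of 1.11 (0.997 to 1.24), and *Ly96* (MD-2) had 7.14 and 3.57, a ratio of 2.0 (1.46 to 2.77). The adaptor *Myd88* was at 22.3 and 23.6, and the ligase *Traf6* was lower in the CvP, at 13.3 and 22.1 (ratio 0.601, 0.570 to 0.633). *Lbp*, the plasma protein that loads CD14, had 1.07 RPKM against 0.02, where the lower value is about 1 read. Over the 12 other listed genes of this receptor pathway, 4 had a ratio above 3, of which 3 rest on 3 Epi reads or fewer, beside 26.1% of all rows. Their median log2 ratio was 0.88, beside 0.50 for the rows with an RPKM above 0 in either library. It was 0.78 for the rows at the level of the 10 genes, a level that *Myd88* and *Traf6* exceed. *Cd14* is known from neutrophils and several epithelia as well as from macrophages.

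*Cd68*, a glycoprotein of endosomes and lysosomes, had the lowest ratio and the highest Epi level of the 10. It had 10.8 RPKM against 4.45, from about 377 and 153 reads, and its ratio of 2.43 (2.004 to 2.94) was 0.214 times that of summed C1q (0.146 to 0.310). The row of *Cd68* lies 873 bases from *Eif4a1*, a translation initiation gene on the same strand with 120 RPKM against 127, and 1728 bases from *Mpdu1* (40.5 and 30.2). The exon model length listed for *Cd68*, 1965 bases, exceeds the 1692 bases from its listed start to its end, which was the case for no other of the 10 genes, and its longest coding transcript in GENCODE M1 has 1230. Whether reads from outside the gene entered its value was not tested. Other lysosomal genes were mostly closer to level. *Ctsd*, *Lamp1* and *Lamp2* had ratios of 0.779, 1.05 and 1.34, whereas *Ctsl* had 187 and 58.7 (ratio 3.19), *Ctss*, the cathepsin of antigen-presenting cells, 8.16 and 1.51 (5.404, 4.08 to 7.32), and the lipoprotein receptor *Scarb1* 5.34 and 0.89 (6.00, 4.56 to 7.92). Of the 18 other listed scavenger and lysosomal genes 6 had a ratio above 3, of which 2 rest on 3 Epi reads or fewer, a share near the 26.1% of all rows.

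**Figure D3:**
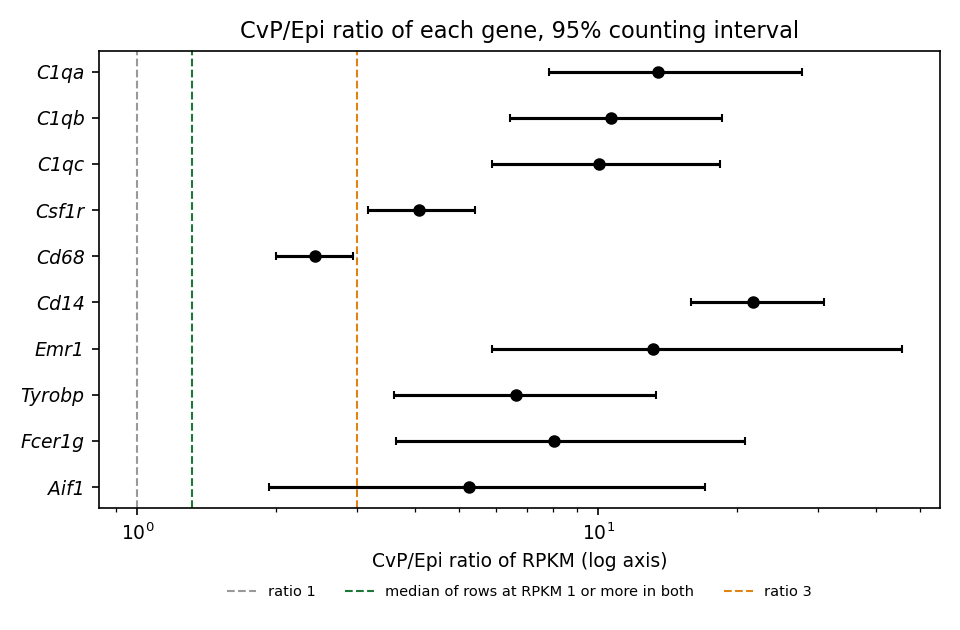
CvP/Epi ratio of RPKM (log axis) for each of the 10 genes, with its 95% counting interval. Dashed lines mark a ratio of 1, the median ratio of 1.31 and the study's criterion of 3. *Cd68* lies below 3, the intervals of *Csf1r* and *Aif1* start at 3.17 and 1.93, and *Cd14* lies at 21.7.

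*Csf1r*, the receptor tyrosine kinase on which macrophages depend, had 2.74 RPKM against 0.67, from about 301 and 72 reads, and its ratio was 4.09 (3.17 to 5.396). Set against summed C1q, this ratio was 0.363 times as large (0.237 to 0.551). In the annotation, 871 exon bases of *Csf1r* are shared with *Hmgxb3* on the opposite strand, which had an RPKM of 7.37 and 5.56. The listed exon model of 3875 bases is shorter than the longest transcript of 4701, and whether it takes in the shared bases was not tested. The ligands differed from each other. *Csf1* had 1.78 and 0.38, a ratio of 4.68 (3.40 to 6.69), while *Il34*, the CSF1R ligand known from keratinocytes and neurons, had 6.47 and 5.65, with a ratio of 1.15 (0.976 to 1.35). Per length, *Il34* was the higher of the ligands in both libraries.

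Transcription factors known from myeloid cells gave no single direction. *Sfpi1* (PU.1), which is largely limited to blood cells, had 0.84 and 0.27, a ratio of 3.11 (1.51 to 7.18). *Cebpa*, *Cebpb* and *Klf4*, which keratinocytes also express, were lower in the CvP, with ratios of 0.645, 0.448 and 0.641 and intervals below 1. *Runx1* had 10.9 and 0.46, a ratio of 23.7 (19.3 to 29.6).

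The adaptors *Tyrobp* and *Fcer1g*, whose ITAM stretches are shown above, had ratios that could not be told apart. *Tyrobp* (chromosome 7, 31198807 to 31202598) had 5.04 RPKM against 0.76, from about 81 and 12 reads, and its ratio was 6.63 (3.60 to 13.4). *Fcer1g* (chromosome 1, 173159703 to 173164480) was at 3.05 and 0.38, about 57 and 7 reads, a ratio of 8.03 (3.65 to 20.8). The *Tyrobp* ratio was 0.829 times that of *Fcer1g* (0.260 to 2.45), which leaves room for a difference in either direction. *Hcst* (DAP10), an adaptor gene that lies 132 bases from *Tyrobp* on the opposite strand, was low, with about 3 reads against 1.

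Receptors, kinases and other genes listed for ITAM signalling were mostly higher in the CvP as well. Of the 30 other listed genes of ITAM signalling with a row, 29 were higher in the CvP, beside 77.0% of all rows, and 20 had a ratio above 3, beside 26.1%. Of the 20, 12 rest on 3 Epi reads or fewer, among them 7 listed at 0 in the Epi. *Fcgr3*, an IgG receptor that pairs with FCER1G, had 2.48 and 0.40, a ratio of 6.20 (3.59 to 11.6). *Clec7a* and *Clec4d*, lectin receptors for fungal cell walls, had CvP values of 1.29 and 1.53, and in the Epi *Clec7a* had about 1 read and *Clec4d* was listed at 0. *Trem2*, a TYROBP partner of tissue macrophages, had about 3 reads and 1. The kinase *Lyn* had 5.45 and 0.71 (ratio 7.68, 5.99 to 10.1) and the phosphatase *Ptpn6* 11.2 and 3.80 (2.96, 2.55 to 3.42). *Plcg2* and *Sirpa*, at ratios of 1.17 (1.06 to 1.29) and 1.19 (1.07 to 1.34), lay below the median ratio of 1.31. *Syk* is not analysed here.

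*Emr1* (the F4/80 antigen) and *Aif1* (IBA1), a surface receptor and an actin-binding protein much used to stain macrophages, were the lowest of the 10. *Emr1* (chromosome 17, 57498109 to 57622952) had 0.79 RPKM against 0.06, from about 73 and 5 reads, and a ratio of 13.2 (5.88 to 45.6), which became 5.56 with 0.1 added to both values. *Aif1* (chromosome 17, 35307937 to 35312946) had 1.05 and 0.20, about 26 and 5 reads, and a ratio of 5.25 (1.93 to 17.1). With 5 Epi reads each, neither ratio could be told apart from that of summed C1q.

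**Figure D4:**
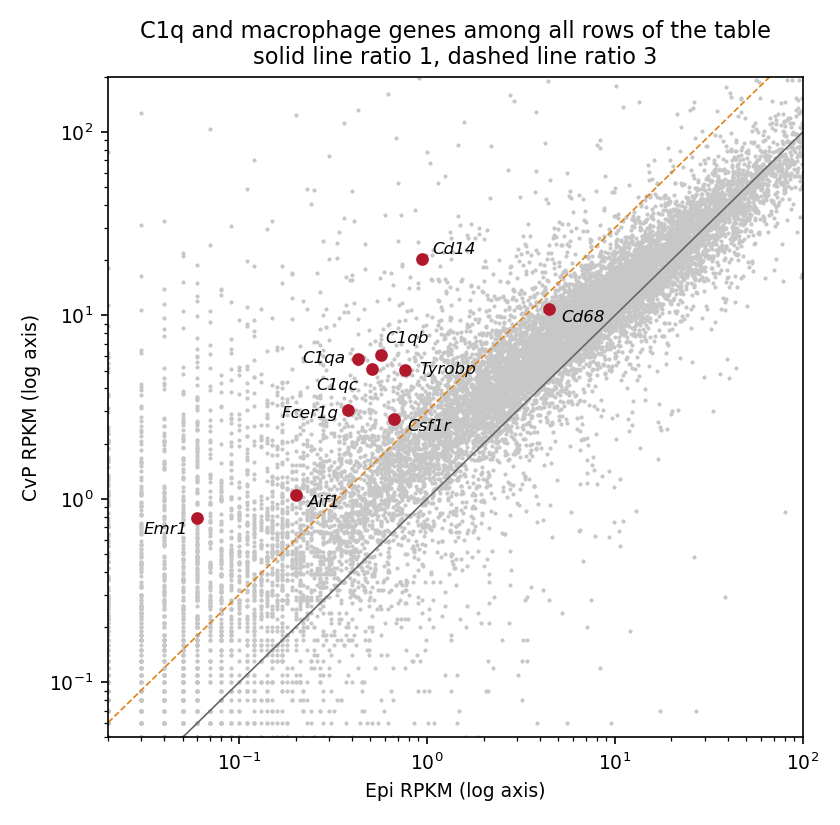
CvP RPKM against Epi RPKM (both log axes) for the rows of the table inside the axes (grey) and the 10 genes (red). *Cd14* and the C1q chains stand above the dashed line of ratio 3, and *Cd68* lies between the lines of ratio 1 and ratio 3.

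The label of macrophage genes was checked against other markers of the lineage. Of 25 other listed macrophage genes with a row, 24 were higher in the CvP (*Cd163*, at 0.02 in both, was the exception), beside 77.0% of all rows. A ratio above 3 was found for 20, beside 26.1%, and 8 of these rest on 3 Epi reads or fewer, with 5 listed at 0 in the Epi. The median log2 ratio of the list was 1.46. An RPKM of 1 in either library was reached by 8 of them. The 25 summed to 167 RPKM against 7.86, and most of the CvP sum was *Lyz2* (lysozyme M, 132 and 0.43). The *Lyz2* ratio of 306 (185 to 528) was above that of each of the 10 genes, and its cell source was not tested. *Mpeg1*, a pore-forming protein of phagocytes, had 3.34 and 0.14, a ratio of 23.9 (14.7 to 41.2). Markers of resident macrophages varied. *Ms4a7* had 1.24 RPKM with about 2 Epi reads and *Folr2* 0.96 and 0.12. *Cx3cr1* had 0.79 and 0.06, *Mrc1* 0.23 and 0.02, *Mertk* 0.23 and 0.14, *Fcgr1* 0.12 and 0, and *Siglec1* 0.01 and 0. *Ptprc* (CD45), which marks all leukocytes, had 1.18 and 0.23, a ratio of 5.13 (3.62 to 7.64). The 14 listed genes of all leukocytes were each higher in the CvP, 10 with a ratio above 3, and summed to 46.9 and 6.73. Among them *Lcp1* had 21.3 and 1.06 and *Laptm5* 6.34 and 1.15.

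Other cell types can supply some of the same transcripts, and their part in the values of the 10 genes was not tested. Nor was the part of taste cells tested, in these values or in those of the listed leukocyte and ITAM genes. Of 11 listed neutrophil genes 9 were higher in the CvP, each with a ratio above 3 or listed at 0 in the Epi. Of these 9, 5 rest on 3 Epi reads or fewer. Over all rows 77.0% were higher in the CvP and 26.1% had a ratio above 3. *S100a8* had 22.1 and 1.37 and *S100a9* 31.4 and 3.45, both of which epithelia also make, *Ltf* (lactoferrin, which glands also secrete) had 1048 and 28.5, *Csf3r* had 2.20 with about 1 Epi read, and *Elane*, which defines neutrophil precursors, was at 0 in both libraries. Langerhans and dendritic genes split: *Cd207* (langerin) had 0.85 in the CvP and 1.33 in the Epi, and *Flt3* 0.28 and 0.05, while *Cd74*, *H2-Aa*, *H2-Ab1* and *H2-Eb1* had ratios from 2.24 to 3.04. The mast cell list had 5 rows, with the protease *Cpa3* at 0 and about 1 read, while *Kit*, which many other cells express, had 26.3 and 1.81 and *Hdc*, which makes histamine, 2.27 and about 1 read. In the list of T and NK cells *Gzma* (granzyme A, a protease of cytotoxic lymphocytes) had 38.2 RPKM, about 952 reads, and was listed at 0 in the Epi, and *Cd247*, a chain of the T cell receptor complex, had 2.69 and 1.36. In the same list *Cd3e* and *Cd3g* of the T cell receptor complex were at 0.15 and 0.24 in the CvP and *Ncr1* of NK cells at 0.03 in both libraries. Of the B cell receptor chains *Cd79b* had 0.80, about 27 reads, and *Cd79a* 0.03, and both were listed at 0 in the Epi. The CvP label was borne out by the 8 listed taste cell genes, which all had a ratio above 3 (*Gnat3* 127 and 0.03). *Krt5* (ratio 1.19) and *Krt13* (0.367) of the epithelium were high in both libraries, which does not tell the labels apart. Of the 7 listed epithelium genes 4 were higher in the CvP and 3 lower.

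**Figure D5:**
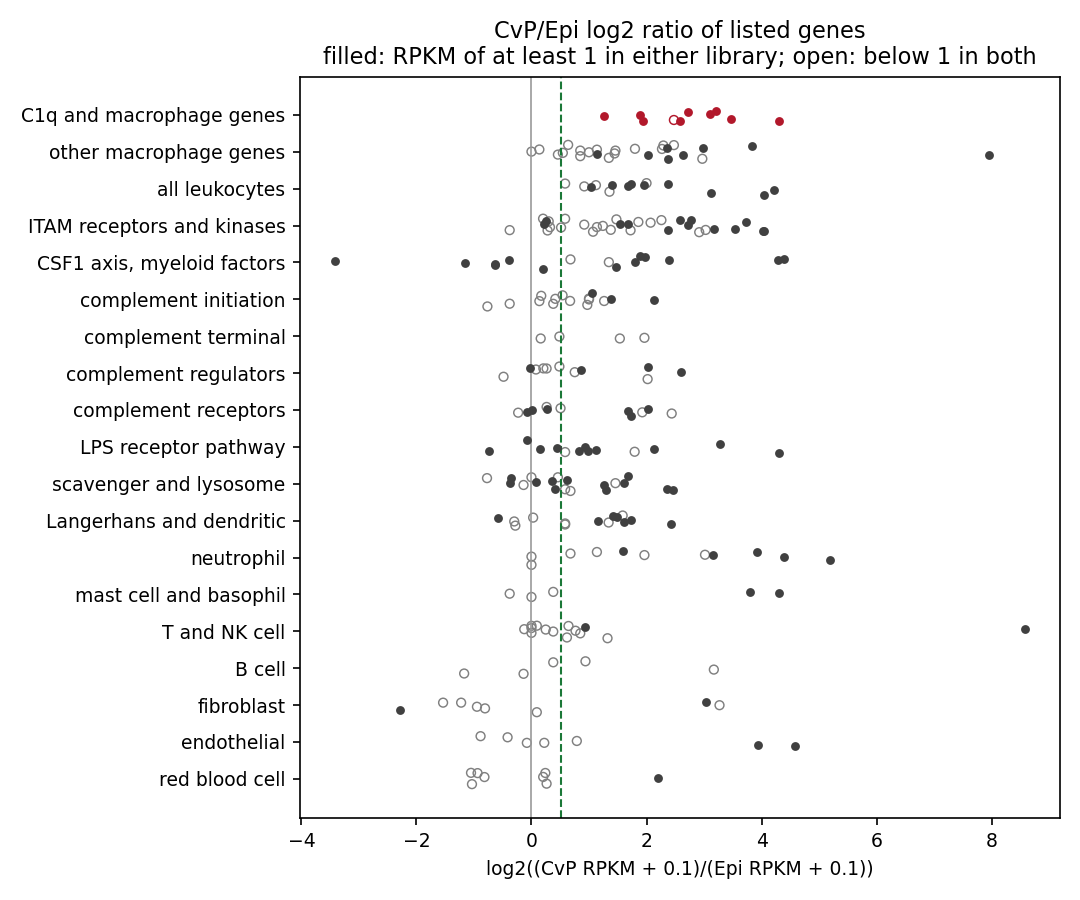
log2((CvP RPKM + 0.1)/(Epi RPKM + 0.1)) of each gene in 19 lists, one row of points per list, with filled points for genes at an RPKM of 1 or more in either library and open points for the others. The solid line is 0 and the dashed line is the median, 0.50, of all rows at that level. The C1q and macrophage genes (red) lie between 1.26 and 4.30, to the right of the dashed line.

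Around the 10 genes, 32 neighbouring rows that are not among them were taken, up to 2 on each side. Of the 21 that reached an RPKM of 1 in either library 4 had a ratio above 3, beside 15.9% of the 12549 rows at that level. They were *Ephb2*, *Nudt12*, *Nfkbid* and *Vav1*, a leukocyte signalling gene 29.4 kb from *Emr1* (4.35 and 0.17). By their pair of RPKM values, the rows closest to the mean of the C1q chains over the 2 libraries were *Slc44a3*, *Fam125b*, *Skint3*, *Dusp10* and *Soat1*, with ratios from 9.71 to 13.0. The likeness was the distance in log2 RPKM with 0.1 added and rests on these 2 values alone.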

How the data were processed

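The 2 libraries were made from poly(A) RNA, 1 of CvP and 1 of Epi. The authors sequenced 75-base single-end reads, mapped them with Bowtie 0.12.7 to NCBI37/mm9 and deposited RPKM values that ERANGE had calculated for each gene. The options of ERANGE, its handling of reads that match several places and the use of strand are not given in the sources used here. Fold changes of the authors (the CvP/Epi column) were not used.

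Ratios were quotients of the deposited RPKM, and log2 ratios had 0.1 added to both values, which shrinks the differences of low genes. Depth was read from the step of the lowest RPKM in 163 rows of 0.1 kb, and reads per gene from it with the listed length, or the longest GENCODE M1 coding transcript where that was shorter, so they are approximate. Ratios were given exact 95% intervals. The ratios of 2 genes were compared by their estimated reads, so the quotient can differ from that of the RPKM ratios. Its interval was the exact conditional interval of the odds ratio of these reads, in 11 comparisons with no adjustment. Of these intervals 3 left out 1. No fold is given where the Epi had 3 reads or fewer. Medians, ratios and list counts used rows as deposited, and alternatives were other pseudocounts, limits and scalings. The depth estimate and the intervals were tested on simulated data. Promoter motifs were found by exact match of letters. The coding stretches were found in the translated proteins, by repeated glycine triplets or by the spacing of the ITAM residues.

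The 10 genes and the 21 lists (264 distinct genes, of which 28 are not analysed here) were chosen with earlier results of these data known. The genes named were the 10, and for each list the 4 with the highest CvP RPKM, 2 with the highest Epi RPKM and 2 with the highest ratio, a fixed set of partners, the neighbours and the 5 rows of most similar pattern. *Cx3cr1*, *Mrc1*, *Mertk*, *Cd163*, *Siglec1*, *Folr2*, *Ms4a7*, *Fcgr1*, *Elane*, *Cd207*, *Flt3*, *Cd3e*, *Ncr1*, *Col1a1*, *Col1a2*, *Cdh5*, *Kdr*, *C4a*, *C1rb* and *Gm5077* were named after their values were seen, as were the rows of similar level used as a background. Some listed genes are not reported here. The software was scipy 1.17.1, pandas 2.3.3 and numpy 2.4.6 under Python 3.11.15, with figures drawn in matplotlib 3.10.9.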

Additional observations from a re-analysis of the deposited data

How the results depend on the processing

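No paired analysis was possible because there is a single library for CvP and for Epi, with no replicate number to pair. No direction of the 10 genes turned under the alternatives run, in which their ratios stayed between 1.69 and 26.2, and 14 of the 60 alternative ratios left the counting interval, 9 of them with a pseudocount of 1. With that pseudocount the median log2 ratio was 1.67 in place of 2.65, the log2 ratio of summed C1q 2.84 in place of 3.49, and the number of genes with a ratio above 3 was 5 in place of 8, since adding 1 lowers ratios most where the Epi RPKM is low. That number was also 5 with an RPKM of at least 5 required in either library, and 1 with a CvP RPKM above 10, by construction of stricter limits. Over the other alternatives it was between 7 and 9, the median log2 ratio between 2.25 and 3.22, and the log2 ratio of summed C1q between 3.09 and 3.76. With the listed length of *Cd68* its estimated reads were 603 and 244 in place of 377 and 153. The median without a pseudocount, 3.17, was added after seeing the data.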

Other observations

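Genes listed for fibroblasts, vessels and red blood cells were at unequal levels within each list. *Col1a1*, *Col1a2* and *Col3a1*, the fibrillar collagens of fibroblasts, had CvP RPKM values of 0.04 to 0.06 and Epi values of 0.17 to 0.25. *Dcn* (decorin) stood apart from them at 26.1 (CvP) and 128 (Epi), *Pdgfra* had 1.30 and 0.07, and *Fbn1* (fibrillin) had 0.96 with about 3 Epi reads. The endothelial genes *Pecam1*, *Cdh5*, *Kdr* and *Tie1* were at or below 0.28 in both libraries, but *Vwf* had 4.45 and 0.09 and *Tek* 2.49 and 0.07. Globin rows of red blood cells were between 0.23 and 0.77 in both. Of the 6 lists for fibroblasts, vessels, red cells, mast cells, T and NK cells and B cells, none had 3 genes at an RPKM of 1 or more in either library.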
